A study of Mus musculus with 10 samples.

Results

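The genes that encode the core of the H3K4 methyltransferase complexes were described by the accessible chromatin found in and around them. The members were 10 genes chosen by name, the 6 methyltransferases Kmt2a, Kmt2b, Kmt2c, Kmt2d, Setd1a and Setd1b and the 4 core subunits Wdr5, Rbbp5, Ash2l and Dpy30. Every accessible site in the body of a member or within 50 kb on either side was taken, which gave 163 of the 153924 sites in the list. ATAC-seq, which marks open chromatin by the insertion of Tn5 transposase and sequencing of the fragments, had been performed on immortalized mouse embryo fibroblasts (iMEF) in 10 libraries. These comprised 2 replicates each of cells without dTAG treatment, which received ethanol according to the methods, and of cells that had been kept in dTAG-13 over periods of 30 min, 4 h, 8 h or 24 h. dTAG-13 is a PROTAC that brings the FKBP part of a fusion protein to the E3 ligase subunit Cereblon, so that the fusion is degraded.

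The genetic background was shared by the 5 groups. The cells expressed FKBP-HA2-ASH2L, a lentiviral transgene that carries human ASH2L, and the endogenous Ash2l alleles had lost exon 4 through a tamoxifen-inducible Cre-ER recombinase under a CAGG promoter. The study names NG3, a clone of these cells, for the ATAC-seq experiments, so features of this clone and of the cell type cannot be told apart. The values analysed here are positions of sites pooled over the 10 libraries, without any read count. A site can therefore not be assigned to untreated or treated cells, no time points were compared, no replicate error belongs to the values, and the sequencing depth is unknown. The following values describe where sites were located and how wide they were, and carry no test.

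KMT2 enzymes transfer methyl groups to lysine 4 of histone H3 through a SET domain, and they need the WRAD core of WDR5, RBBP5, ASH2L and DPY30 to do so efficiently. KMT2A and KMT2B bind CpG-rich promoters, KMT2C and KMT2D are best known for monomethylation at enhancers, and SETD1A and SETD1B account for much of the trimethylation at active promoters. CpG-rich promoters, which are typical of widely expressed genes, tend to be accessible in many cell types.

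The sites at the 10 genes covered 131 kb of 1.52 Mb, and their density was 107 sites per Mb compared to 56.4 sites per Mb of the genome. The genome includes regions far from genes. In the same windows around genes, the median was 111 sites per Mb for the members and 86.6 for all protein-coding genes. Of the 163 sites, 15 were promoter sites, defined as sites within 1 kb of an annotated start of the member, and 29 had their middle elsewhere in the gene body. The remaining 119 sites were in the flanks, where 50 lay within 1 kb of a start of another gene, 50 inside another gene and 19 between genes. As a check of the cell type, a promoter site was found at 8 of 8 fibroblast markers and at 7 of 10 markers of other cell types, beside 70.8% of all protein-coding genes, so the second share was near that of all genes. The median widths were 1966 and 706 bp, but the ranges overlapped, with 659 bp at the fibroblast marker Col1a1 compared to 1640 bp at Sox2 and 1500 bp at Epcam. Ptprc, Cd3e and Nanog had no promoter site. The presence of a site is not expression.

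**Figure D1:**
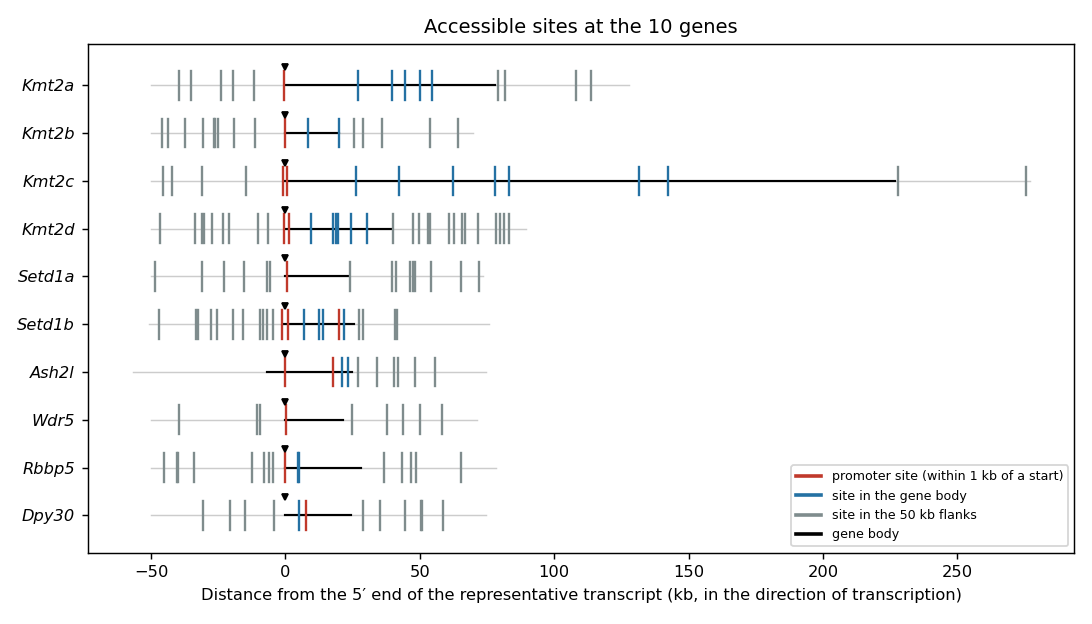
Positions of the 163 accessible sites at the 10 genes, with the distance from the 5′ end of the representative transcript in kb on the x axis and 1 row per gene. Black lines are gene bodies, grey lines the 50 kb flanks, triangles the 5′ ends, and vertical strokes the middles of sites, coloured as promoter, body or flank. The flank upstream of Ash2l is empty, and the 5′ end of Dpy30 has no promoter site beside it.

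The number of sites differed widely between the loci. The Kmt2d locus held 31 sites, or 222 per Mb, which placed it at the 99.5th percentile of 21938 protein-coding genes for the same window. Genes on chromosome 15 had a median of 149 sites per Mb, compared to 86.6 for all protein-coding genes, and within this chromosome Kmt2d was at the 98.7th percentile. Setd1b followed with 22 sites and 174 per Mb, and Kmt2b, Setd1a and Rbbp5 had 142, 130 and 125 sites per Mb, respectively. Dpy30 (96.4), Kmt2a (84.3), Ash2l (75.9) and Wdr5 (74.1) were near the median of all genes in sites per Mb. Kmt2c, the longest gene of the group with 227 kb, had the lowest density with 45.9 sites per Mb and was at the 23.9th percentile. The median over the members was 111 sites per Mb.

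The promoters of the 10 genes were accessible. A site within 1 kb of an annotated start was found for 10 of 10 members, compared to 70.8% of all protein-coding genes. The 5′ end of the representative transcript, the principal isoform of the annotation, was itself covered by a site in 8 of 10 members and in 59.5% of all protein-coding genes. The exceptions were Setd1b and Dpy30. A CpG-rich promoter, with an interval of 500 bp near the 5′ end having a GC content of at least 0.55 and an observed to expected CpG ratio of at least 0.6, was present in 9 of 10 members and in 57.8% of all genes. The exception was Dpy30.

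Among the CpG-binding methyltransferases, Kmt2a, which is rearranged in infant leukemia and maintains Hox gene expression, had the widest promoter site of the group. It spanned 2667 bp (chr9:44880400-44883066) and reached 1770 bp upstream and 896 bp downstream of the 5′ end, and its width was at the 97.9th percentile of 14538 genes with such a site. The promoter site of its paralog Kmt2b was 2286 bp wide (chr7:30587764-30590049) and at the 93.8th percentile. Both sites thus extended further upstream than downstream.

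Kmt2d, whose human counterpart is mutated in Kabuki syndrome, had a promoter site of 1949 bp (chr15:98870946-98872894), of which 1690 bp lay upstream of the 5′ end. A narrow site of 318 bp followed in intron 1, after a gap of 717 bp. For Kmt2c, the list held 2 sites of nearly the same width at the promoter. The site over the 5′ end (chr5:25497471-25498789, 1319 bp) ended 44 bp upstream of it, and the second site (chr5:25499008-25500360, 1353 bp) lay further upstream. Between them were 218 bp with a GC content of 90.8%. Positions carry no signal, so this gap does not show closed chromatin. The RefSeq promoter of Kmt2c, from 250 bp upstream to 50 bp downstream of a start, is shown because it contains this gap, and capitals mark the bases that belong to neither site.
Kmt2c, chr5:25498734-25499033, minus strand: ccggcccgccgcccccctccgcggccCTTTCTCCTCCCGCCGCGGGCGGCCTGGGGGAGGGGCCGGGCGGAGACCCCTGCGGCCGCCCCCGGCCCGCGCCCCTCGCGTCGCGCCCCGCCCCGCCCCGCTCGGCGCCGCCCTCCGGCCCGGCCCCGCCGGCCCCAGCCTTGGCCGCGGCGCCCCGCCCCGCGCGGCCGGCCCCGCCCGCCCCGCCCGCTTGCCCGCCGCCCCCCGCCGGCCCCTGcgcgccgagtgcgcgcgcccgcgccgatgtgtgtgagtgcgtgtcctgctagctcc

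The SET1-type methyltransferases, which act on a broad range of active promoters, showed contrasting arrangements. Setd1a had a site of 1949 bp (chr7:127776250-127778198) with most of its width, 1528 bp, downstream of the 5′ end, and it contained 4 of the 5 annotated starts of the gene. At Setd1b the 5′ end fell into a gap of 1171 bp with a GC content of 66%. A site of 1422 bp (chr5:123141060-123142481) ended 476 bp upstream of the 5′ end and covered 1 other annotated start, and a site of 212 bp followed in intron 2. An uncovered 5′ end with a site within 1 kb on both sides was found for 206 of all protein-coding genes, or 0.939%.

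The scaffold proteins of the WRAD core had promoter sites of moderate width. Wdr5, whose product binds the KMT2 enzymes and the histone tail, had a site of 1730 bp (chr2:27514362-27516091) at the 74.9th percentile. The endogenous Ash2l locus, which has lost exon 4 and is distinct from the transgene of the degraded fusion, had a site of 1608 bp (chr8:25840116-25841723) at the 67.3rd percentile. Rbbp5, whose product joins ASH2L to the SET domain, had the narrowest site with 1258 bp (chr1:132476593-132477850), at the 38.1st percentile. This site also had the lowest GC content of the 9 sites, 49.8%.

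Dpy30, which binds ASH2L as a dimer, had its accessible promoter away from the representative 5′ end. The 5′ end of its representative transcript at position 74323944 of chromosome 17 had its nearest site at a distance of 4025 bp. In contrast, 5 annotated starts between positions 74316203 and 74316463 lay within a site of 1513 bp (chr17:74315610-74317122). The uppermost of these starts is 7481 bp downstream of the representative 5′ end. The 1 kb around the representative 5′ end had a GC content of 40.2% and a CpG ratio of 0.149, compared to 61.2% and 0.879 at the downstream starts. Of the 4 RefSeq promoters of Dpy30, the most upstream and the most downstream are shown to make this difference visible, with each CpG in capitals. The upstream promoter contained 1 CpG and the downstream promoter 39 within 300 bp.
Dpy30 upstream start, chr17:74323895-74324194, minus strand: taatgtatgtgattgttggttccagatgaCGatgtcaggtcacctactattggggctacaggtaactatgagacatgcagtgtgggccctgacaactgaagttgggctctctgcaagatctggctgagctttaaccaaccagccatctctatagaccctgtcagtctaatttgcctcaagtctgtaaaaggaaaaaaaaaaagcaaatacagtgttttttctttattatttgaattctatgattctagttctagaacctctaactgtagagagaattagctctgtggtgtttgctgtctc
Dpy30 downstream starts, chr17:74316162-74316461, minus strand: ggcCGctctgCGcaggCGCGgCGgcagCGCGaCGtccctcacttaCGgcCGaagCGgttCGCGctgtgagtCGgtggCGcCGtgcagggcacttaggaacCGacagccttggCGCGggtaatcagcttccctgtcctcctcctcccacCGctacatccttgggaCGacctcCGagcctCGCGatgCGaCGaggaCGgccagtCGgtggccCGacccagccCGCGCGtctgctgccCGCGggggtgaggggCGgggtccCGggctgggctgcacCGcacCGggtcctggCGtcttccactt

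RefSeq promoters in the GRCm38.p6 table used for sequences were matched by symbol for 7 of the 10 members. Kmt2b, Setd1b and Ash2l had no entry.

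Over the 9 members with a site near the representative 5′ end, the median width was 1730 bp, compared to 1392 bp over 14538 protein-coding genes and 1460 bp over those with a CpG-rich promoter. The widths ranged from 1258 to 2667 bp, while all genes ranged from 179 to 4614 bp. The median reach upstream was 936 bp for the members and 563 bp for all genes, and the median reach downstream was 896 and 780 bp, respectively. These medians include sites that do not cover the 5′ end, such as that of Setd1b, which ended 476 bp upstream of it. Over covering sites alone, the members had medians of 866 bp upstream and 915 bp downstream. For all genes these were 572 and 791 bp. Among sites that covered the 5′ end, 3 of 8 member sites (37.5%) reached further downstream than upstream, which were those of Kmt2c, Setd1a and Wdr5, compared to 67.1% for all genes. More than 1 promoter site was found at 4 of 10 members, Kmt2c, Kmt2d, Setd1b and Ash2l, and at 30.6% of all genes with a promoter site. The second site of Ash2l was far from the 5′ end, with its middle 17783 bp downstream at exons 11 and 12, beside an internal start. Setd1b had 3 promoter sites, of which 1 lay at exon 13 beside internal starts.

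**Figure D2:**
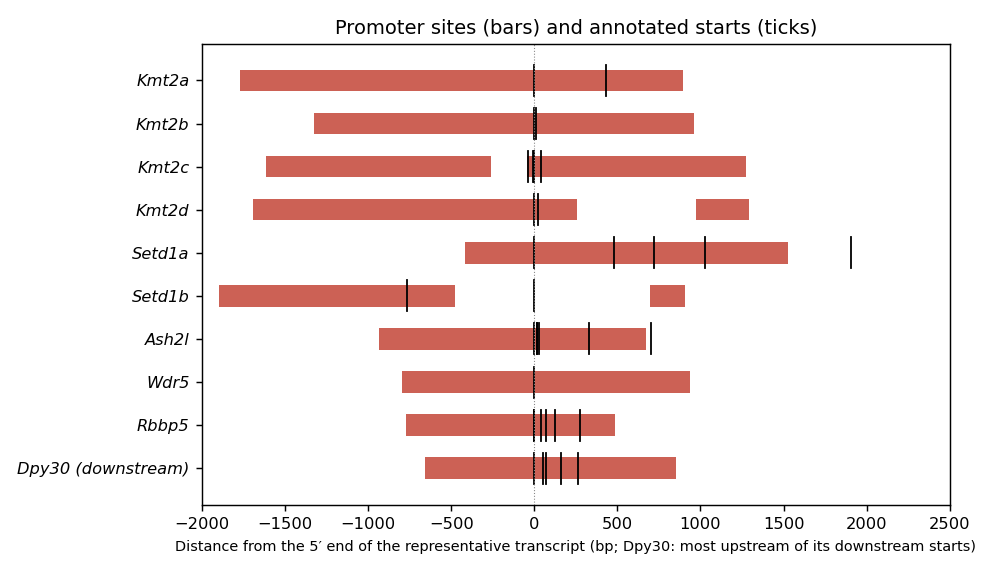
Promoter sites of the 10 genes as bars and annotated starts as black ticks, with the distance in bp from the 5′ end of the representative transcript on the x axis, in the direction of transcription. Dpy30 is drawn from the uppermost of its 5 downstream starts. The gap of 218 bp at Kmt2c, the uncovered 5′ end of Setd1b and the long upstream part of the Kmt2a site are visible.

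**Figure D3:**
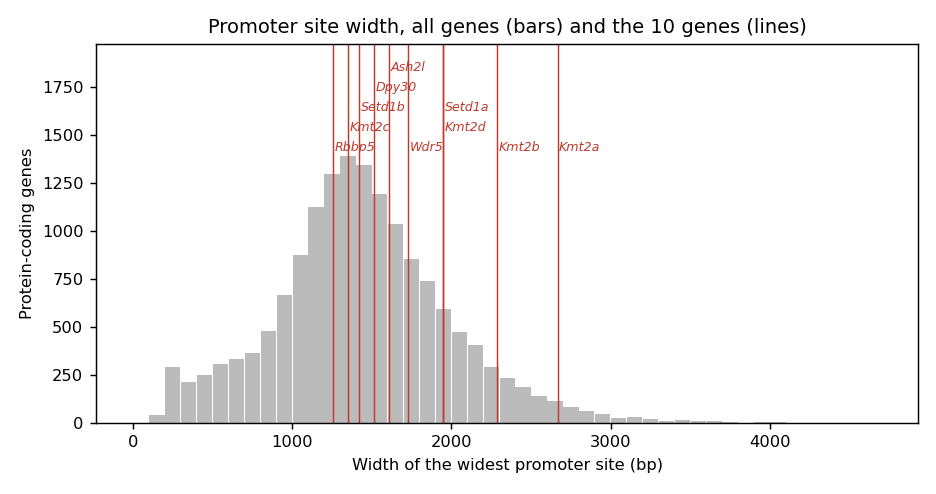
Width in bp of the widest promoter site of each protein-coding gene on the x axis, with grey bars giving the number of genes per 100 bp and red lines the 10 genes. The members lie between 1258 bp (Rbbp5) and 2667 bp (Kmt2a), with Kmt2d and Setd1a both at 1949 bp.

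All 10 members had further annotated starts more than 1 kb from the representative 5′ end. Merged within 500 bp, these made up 27 clusters, of which 6 (22.2%) had a site within 500 bp, compared to 21.2% of the clusters of all protein-coding genes. This share was therefore near that of all genes. The 6 clusters were the downstream starts of Dpy30, 2 starts of Setd1a reached by its promoter site, 2 starts of Setd1b at positions 123162709 and 123163381 beside a site of 498 bp, and a start of Ash2l at position 25823575. The sites beside the Setd1b and Ash2l starts are those at exon 13 and at exons 11 and 12 named above, which overlap coding exons. None of the further starts of Kmt2a, Kmt2b, Kmt2c, Kmt2d, Wdr5 and Rbbp5 had a site within 500 bp. A coding transcript of Ash2l that begins 6907 bp upstream of the representative 5′ end, at position 25847694, had its nearest site at a distance of 5971 bp.

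Starts were also divided by base composition. Counting the 10 representative 5′ ends and the 27 further clusters, 11 starts were CpG-rich and 11 of these had a site within 500 bp. Of the 26 starts that were not CpG-rich, 4 had a site. For all protein-coding genes the same shares were 88.8% and 17.6%, so the members were near all genes in both classes. The 4 exceptions were a start of Setd1a, both internal starts of Setd1b and the internal start of Ash2l.

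**Figure D4:**
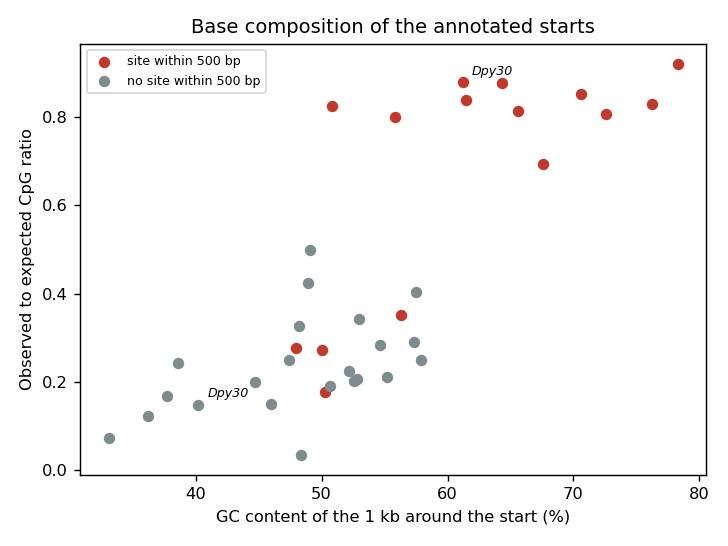
GC content in percent and observed to expected CpG ratio of the 1 kb around each of 37 annotated starts or clusters of starts of the 10 genes. Red points have a site within 500 bp and grey points have none. The starts with a ratio above 0.6 have a site in 11 of 11 cases, and the 2 labelled points are the upstream and downstream starts of Dpy30.

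Promoter sites were also examined for starts of other genes on the opposite strand. For 0 of 9 members with a site near the representative 5′ end was the site shared with an opposite protein-coding start, compared to 16.1% of all protein-coding genes. When starts of any gene were considered, an alternative chosen after seeing the data, 6 of 9 sites were shared, compared to 28.1% of all genes. The shares were not matched for width, and the median width was 1730 bp for the members and 1392 bp for all genes. The partners were noncoding: an antisense transcript for Kmt2a (AC061963.1), a microRNA for Kmt2b (Mir3569), long intergenic RNAs for Kmt2c (4831440E17Rik), Kmt2d (5730414N17Rik) and Setd1b (AI480526), and a processed transcript for Rbbp5 (6030442K20Rik).

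Inside the gene bodies, 29 sites were found besides the promoter sites. Kmt2d and Setd1b had the highest densities with 1.52 and 1.51 sites per 10 kb, at the 93.5th and 93.4th percentile of genes of 5 kb or more. For Kmt2d the rank was not computed within chromosome 15, where the median was 149 sites per Mb compared to 86.6 for all genes. Kmt2b had 1.01, Rbbp5 0.707, Kmt2a 0.642, Ash2l 0.631, Dpy30 0.409 and Kmt2c 0.308 sites per 10 kb. Setd1a and Wdr5 had 0 sites in the body, which was also the case for 38.2% of the 17798 genes. The median was 0.636 for the members and 0.407 for these genes.

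Of the body sites, 15 overlapped coding exons and lay more than 1 kb from any annotated start. Such sites were present in 6 of 10 members and in 17.9% of all protein-coding genes. Kmt2d had 6 of them, at exons 47 and 48, 39 and 40, 33, 12 and, with 2 sites, exon 32. As few as 13 genes, or 0.0593% of all protein-coding genes, had 6 or more. This rank was not computed within chromosome 15, whose genes had a higher median of sites per Mb, as given above. The Kmt2d sites were 201 to 412 bp wide, and both sites at exon 32, an exon of 1815 bp, consisted of coding sequence over their whole width. Per kb of coding sequence, which is 16764 bp long in Kmt2d, its 0.358 sites were at the 85.8th percentile. Kmt2a had 4 sites at exons 9, 11, 16 and 21, and 85 genes had 4 or more, but per kb of its 11889 bp of coding sequence it was at the 85.3rd percentile. Kmt2b, Kmt2c and Setd1b had 1 site each, at exons 15 and 16, exon 15 and exon 7, respectively, and Ash2l had 2. Per kb of coding sequence the 6 members with such a site were at the 82.1st (Kmt2c) to 96.5th (Ash2l) percentile, and the shares of genes with a site given above were not matched for coding length. These ranks have a floor, because 17.9% of genes had such a site and each of them ranks above all genes without one. Kmt2c, with 0.068 sites per kb, was at this floor. These 15 sites had a median width of 341 bp, compared to 704 bp for 5138 sites of this kind.

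The sites in the body of Ash2l lay at some of its exons. One edge of the site at exons 15 and 16 (chr8:25817432-25817664) was 1 bp from an exon boundary, and one edge of the site at exon 13 (chr8:25819421-25819721) was 3 bp from one. A further site at exons 11 and 12 (chr8:25822699-25823308, 610 bp), within 1 kb of the internal start named above, had both edges near exon boundaries, at 2 and 4 bp. Exons 11, 13 and 15 were covered completely and exon 12 to 97.9%, whereas exons 2 to 10 and exon 14 were not covered. In exon 16 the site began 28 bp inside the coding part. Coding sequence made up 30.9% of the site at exon 13, 58.7% at exons 11 and 12 and 58.8% at exons 15 and 16, the rest being intron. The other edges of the sites at exon 13 and at exons 15 and 16 were 205 and 77 bp from a boundary. Exon 4 at positions 25836000 to 25836088, the exon deleted in these cells, was 4028 bp from the nearest site. The boundaries are shown with 30 bases on either side and exon bases in capitals.
Ash2l exon 11, start, chr8:25823277-25823336, minus strand: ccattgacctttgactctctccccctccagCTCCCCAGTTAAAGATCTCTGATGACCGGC
Ash2l exon 12, end, chr8:25822665-25822724, minus strand: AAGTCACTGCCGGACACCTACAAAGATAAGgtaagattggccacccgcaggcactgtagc
Ash2l exon 13, start, chr8:25819689-25819748, minus strand: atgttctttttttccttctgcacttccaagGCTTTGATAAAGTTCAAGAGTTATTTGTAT
Ash2l exon 15, start, chr8:25817634-25817693, minus strand: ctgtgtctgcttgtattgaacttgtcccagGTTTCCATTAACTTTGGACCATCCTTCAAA
At the starts of exons 11, 13 and 15 the sites ended 2, 3 and 1 bp into the intron, and at the end of exon 12 the site ended 4 bp inside the exon. The transgene in these cells contains a human ASH2L coding sequence, and its part in these sites was not tested.

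An edge within 10 bp of an exon boundary was found for 3 of the 15 coding-exon sites (20%), compared to 10.5% of these sites in all protein-coding genes. They were both Ash2l sites and the site at exon 11 of Kmt2a, with an edge at 8 bp. The shares were not matched for width, and the member sites were narrower, with a median of 341 bp compared to 704 bp. Both edges were within 10 bp for 0 of 15 member sites and for 6 of 5138 sites (0.117%). When the starts of representative transcripts alone were considered, an alternative chosen after seeing the data that admits the site at exons 11 and 12 of Ash2l, the numbers were 1 of 18 (5.56%) and 11 of 7308 (0.151%).

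**Figure D5:**
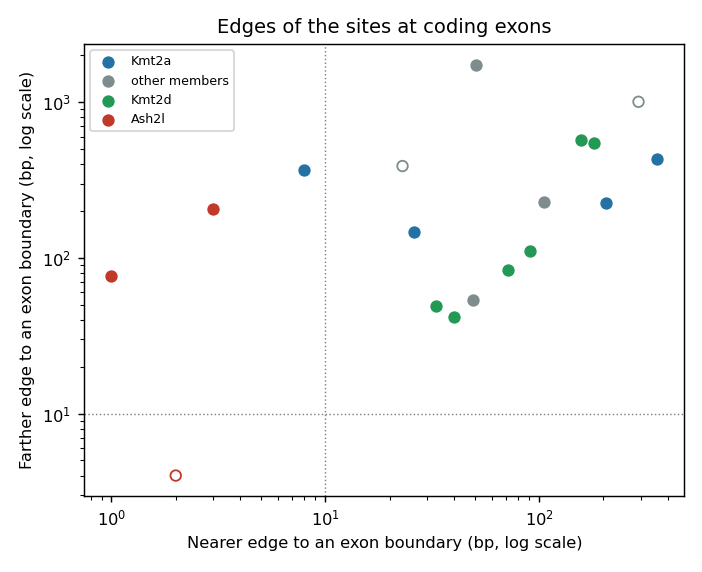
Distance in bp of the nearer and the farther edge of each site to an exon boundary, on log scales, for the sites of the members that overlap coding exons. Filled points lie more than 1 kb from any annotated start, open points lie within 1 kb of one, and dotted lines mark 10 bp. The open red point at 2 and 4 bp is the site at exons 11 and 12 of Ash2l.

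The other 14 body sites did not overlap coding sequence. Kmt2c had 6 of these, in introns 1, 2 and 18, with widths of 409 to 1041 bp. Setd1b had sites of 1016, 525 and 263 bp in introns 5, 6 and 15. Rbbp5 had 2 narrow sites of 237 and 181 bp in intron 1, Dpy30 a site of 207 bp in intron 1 and Kmt2a a site of 180 bp in intron 1. The site of Kmt2b, 279 bp wide, lay at the last exon, exon 37.

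The flanks showed a further difference between the loci. Upstream of the promoter site of Ash2l the next site was 70.2 kb away, and 0 sites lay in the 50 kb upstream of the gene, whereas the flank downstream contained 6. An upstream flank without a site was found for 15.4% of all protein-coding genes. For the other 9 members the next site upstream of the promoter site was between 1.62 kb (Dpy30) and 12.5 kb (Kmt2c) away. For Dpy30 this was counted from the site at its downstream starts, and the next site lay inside the gene, in intron 1. The site nearest to its representative 5′ end was 4025 bp away. The upstream flanks of these 9 members held 3 to 11 sites. The median number of upstream sites was 5.5 for the members and 4 for all genes.

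Distal sites, with no start of any gene within 1 kb, numbered 98 at the 10 genes. Their median width of 480 bp compared to 565 bp for all 127255 distal sites of the list. The widest were a site of 1796 bp at exon 15 and intron 14 of Kmt2c (chr5:25366146-25367941), 132 kb downstream of the 5′ end, and a site of 1779 bp (chr9:44904467-44906245), 24.1 kb upstream of Kmt2a. Both contained 3 matches to TGANTCA, the core recognized by AP-1 factors, which are abundant in fibroblasts. The match closest to the middle of each site is shown with its surroundings and the match in capitals.
Kmt2a widest distal site, chr9:44905155-44905221, plus strand: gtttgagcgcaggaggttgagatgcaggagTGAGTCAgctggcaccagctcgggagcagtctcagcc
Kmt2c widest distal site, chr5:25367276-25367342, plus strand: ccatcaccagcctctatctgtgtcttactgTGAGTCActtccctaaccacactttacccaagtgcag
The widest distal sites of the other loci were 1667 bp (Dpy30, in Memo1), 1374 bp (Wdr5), 1341 bp (Setd1a, in Fbxl19), 1133 bp (Kmt2b, in Arhgap33), 1113 bp (Rbbp5, in Cntn2), 1020 bp (Setd1b, in Tmem120b), 917 bp (Kmt2d, in Ddn) and 545 bp (Ash2l, in Lsm1) wide. Over all 98 distal sites an AP-1 match occurred in 24 (24.5%), compared to 39.8% of all distal sites. Matches to the CTCF motif occurred in 6 (6.12%), compared to 4.6%.

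The promoter sites were searched on both strands for consensus letters of 10 families of transcription factors, using for each member the site near the representative 5′ end and for Dpy30 the site at its downstream starts. The GC-rich letters GGGGCGGGG of the SP family were present in 6 of 10 members (Kmt2a, Kmt2b, Kmt2c, Kmt2d, Setd1a and Dpy30) and in 35.7% of 13383 distinct promoter sites of protein-coding genes. GCGNGGGCG, recognized by EGR factors, was present in the 4 genes Kmt2a, Kmt2b, Kmt2c and Kmt2d and in 25.7% of all promoter sites. AAGATGGCG of YY1 was found in Kmt2b, 1 bp from an annotated start, and in Kmt2c, compared to 5.43% of all promoter sites. CCAATCA of NFY was found in Kmt2a and Setd1b (17.3%), CACGTG, the E-box, in Kmt2d and Wdr5 (26.3%), CCGGAAGT of ETS factors in Wdr5 (10.4%), and TGANTCA of AP-1 in Setd1a (24.9%). The percentages in parentheses are shares of all promoter sites. CGCATGCG of NRF1 (4.92%), TGACGTCA of CREB (4.66%) and the CTCF motif (2.59%) were in 0 of these 10 sites, although the second promoter site of Kmt2c held 1 NRF1 match. The SP and EGR letters can overlap, as they did in Kmt2b. The shares of all promoter sites were not matched for width or CpG content. Within the middle 200 bp, SP letters were in 0 members and EGR letters in 1, compared to 8.44% and 6.94% of all promoter sites. A match describes the letters of a site and not binding.

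A second form of the NRF1 letters, GCGCANGC, was searched after the data had been seen. It is shifted and holds an open position, and a match to CGCATGCG need not match it. GCGCANGC was present in 6 of the 10 sites, compared to 35.7% of all promoter sites. It was absent from those of Ash2l, Kmt2d and Setd1b and from the site over the 5′ end of Kmt2c. The middle of the match was 2 bp from the nearest start in Wdr5, 4 bp in Rbbp5 and 14 bp in Dpy30, 148 bp in Setd1a, 229 bp in Kmt2b and 864 bp in Kmt2a. These distances are a description, since they were not computed for all promoter sites. The RefSeq promoters of Wdr5 and Rbbp5 are shown with the match in capitals, which for Rbbp5 is on the opposite strand.
Wdr5, chr2:27514897-27515196, plus strand: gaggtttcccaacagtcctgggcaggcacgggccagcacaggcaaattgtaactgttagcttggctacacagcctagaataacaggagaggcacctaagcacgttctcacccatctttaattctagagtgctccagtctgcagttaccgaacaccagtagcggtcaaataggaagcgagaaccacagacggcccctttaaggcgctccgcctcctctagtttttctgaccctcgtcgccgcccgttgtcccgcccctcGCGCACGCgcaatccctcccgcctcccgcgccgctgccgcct
Rbbp5, chr1:132477117-132477416, plus strand: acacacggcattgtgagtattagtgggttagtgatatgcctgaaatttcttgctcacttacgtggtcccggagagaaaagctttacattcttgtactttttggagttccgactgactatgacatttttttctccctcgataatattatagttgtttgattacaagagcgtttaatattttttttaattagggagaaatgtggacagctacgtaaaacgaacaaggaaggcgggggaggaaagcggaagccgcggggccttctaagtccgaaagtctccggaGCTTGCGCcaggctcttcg

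Other genes of H3K4 methylation and further SET domain methyltransferases were compared by their widest promoter site. Of 14 accessory subunits and associated factors, 13 had a promoter site, with a median width of 1536 bp. Men1, which encodes the menin subunit of KMT2A and KMT2B complexes, had none, and Kdm6a, a demethylase of H3K27 in KMT2C and KMT2D complexes, had the widest with 2187 bp. Of 6 demethylases of H3K4, 5 had a promoter site with a median of 1713 bp, the widest being Kdm1b (2048 bp), and Kdm5d on chromosome Y had none. The paper does not state the sex of the cells, and whether they carry chromosome Y was not tested. Of 6 other SET domain methyltransferases, 5 had a promoter site with a median of 1895 bp, the widest being Setd7 (2432 bp), and Smyd1, which acts in muscle, had none. The median of the widest site was 1669 bp for the 10 members and 1412 bp for all protein-coding genes with a promoter site.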

How the data were processed

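ATAC-seq was measured in 10 libraries of 5 groups. The authors used Trim Galore for trimming, BWA for alignment to mm10, SAMtools for filtering, Picard for merging of replicates and MACS2 for narrow peaks, per the methods and the submitters' processing notes. Versions, the peak threshold and the way in which sites of different samples were joined are not given in the sources used here, and each could change the number and the edges of sites. The deposited list holds no signal but positions in bp, with a chromosome, start and end for each site over all samples, and the authors' differential tests were not used. Positions were read as counted from 0 and are printed counted from 1. The smallest gap between sites was 1 bp, and 0 sites ended beyond a chromosome of GRCm38. The 242 sites outside the chromosomes were left out.

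Genes came from GENCODE vM21, with the APPRIS principal transcript, else the longest coding one, as representative. Percentiles are among protein-coding genes having the value. CpG-rich intervals lay between 500 bp upstream and 2 kb downstream of the 5′ end. Named besides the members were sites at coding exons or alternative starts, the widest distal site of each locus, opposite partners and, of each list, the widest gene and those without a promoter site. The members and lists were chosen with earlier results of these data known. Calculations used Python 3.11.15, NumPy 2.4.6 and Matplotlib 3.10.9 and were tested on simulated data. Alternatives were other windows, wider sites, merged neighbours and other thresholds.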

Additional observations from a re-analysis of the deposited data

Results flagged for a closer look

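The list contained 242 sites on sequences other than chromosomes 1 to 19, X and Y. They belong to no comparison made here, and no control samples could be set against them because the list pools all libraries.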

How the results depend on the processing

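The number of sites at the 10 genes depended on the window and on the width of sites. Instead of 163 sites, 73 were found with flanks of 10 kb, 264 with flanks of 100 kb, and 80 when sites narrower than the median were dropped. The 119 flanking sites became 29 with flanks of 10 kb, and the 29 body sites became 6 without those narrower than the median. Within the middle 200 bp of the sites, the 18 motif matches in promoter sites, counted per family and member, became 1 and the 50 in distal sites became 19. Alternatives chosen after seeing the data raised some counts. The members with an opposite start in the promoter site rose from 0 to 6 when starts of any gene were taken. The coding-exon sites with both edges near exon boundaries rose from 0 to 1 when starts of representative transcripts alone were taken. The causes of these increases follow from the construction of the alternatives. The members with NRF1 letters rose from 0 to 6 with the second form of the letters. That form is a different string, present in 35.7% of all promoter sites compared to 4.92% for the first. The other alternatives moved counts by at most 1.5 times, and the widest site of each member gave a median width of 1669 in place of 1730 bp. No paired analysis was possible because values per library are not part of the positions analysed. The unknown depth limits which weak sites could be listed, so that the absence of a site does not show closed chromatin.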
